A study of Mus musculus with 12 samples.

Results

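The 4 Sall genes and the 4 Eya genes were followed through reduced representation bisulfite sequencing of mouse PKD1-Het cells. Members were taken by name from the GENCODE M1 annotation of mm9, 8 of 22380 protein-coding genes, each from 5000 bp before its start to its end. The CpGs of each gene were divided into 4 parts, namely the promoter (2000 bp before to 500 bp after the start), the exons and introns outside it, and the rest of the upstream 5000 bp. PKD1-Het cells, heterozygous for Pkd1, derive from the proximal tubule epithelium of Pkd1 flox/-:TSLargeT animals, so every group carries the same Pkd1 alleles and the large T transgene, and passage 3 cells were used. The cells had received, for 24 h, F-MTAza (tolvaptan at 10 µM, metformin at 300 µM and Aza at 50 µM, all unpackaged, 3 libraries), NP-MTAza (the same 3 drugs in micelles, 3 libraries), Aza alone at 50 µM (3 libraries) or PBS (3 libraries). Aza is an inhibitor of DNA methyltransferases, metformin is a diabetes drug and tolvaptan blocks the vasopressin receptor of the kidney. No source used here says whether the libraries of a group came from separate cultures. The p-values of gene parts therefore measure the spread between these libraries, which may be technical. The q of a single CpG rests on reads summed over a group's libraries and does not measure that spread.

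SALL proteins are zinc finger transcription factors that can repress genes by recruiting the NuRD complex, which removes acetyl groups from histones and remodels nucleosomes. EYA proteins bind no DNA themselves. They act as co-activators of homeodomain proteins of the sine oculis family and carry a protein phosphatase. Sall1 and Eya1 are both needed in the metanephric mesenchyme, the embryonic tissue from which nephrons form, for the ureteric bud to grow in, and human mutations of SALL1 and EYA1 cause Townes-Brocks and branchio-oto-renal syndromes, which can include kidney malformation. In mammalian DNA, CpG-dense promoters are usually free of methylation while CpGs inside gene bodies are usually methylated.

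Depth ran between 25336747 and 65817118 reads over the listed CpGs of a library, with a median of 7 to 9 reads per CpG. Aza replicates 1 and 2 were left out of every comparison. Across the CpGs of the 8 genes, the median Spearman correlation between 1 of them and 1 of the remaining 10 libraries was 0.058 for read numbers and -0.045 for levels, over 20 pairs of libraries. Among the other 10 libraries the corresponding medians were 0.54 and 0.67 over 45 pairs. Aza alone is therefore 1 library, given as a value with no test. Among markers of the proximal tubule, the mean promoter level in combination and in PBS libraries was 18.6% and 20.9% at Lrp2, an endocytic receptor, and 42.7% and 84.7% at Hnf4a, a transcription factor of the tubule cell. Of 10 markers of other kidney and blood cells 5 could be read, at 26.5% to 89.4% in PBS. No RNA was measured in these libraries, and a level is an average over cells, so a loss on some strands of every cell and a complete loss in some cells cannot be told apart.

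Sequences of 4 stretches of introns and exons with called losses in both comparisons with PBS are given first, as examples of where single-CpG differences lie in Eya2, Eya4 and Sall1. A CpG was called when F-MTAza or NP-MTAza differed from PBS by at least 35 points with q under 0.01 in a likelihood ratio test on reads. Each run is the plus strand of mm9, 5′ to 3′, in lower case, and capitals mark the CpGs called lower in either comparison. The first lies in intron 2 of Eya4 at chr10:22957115-22957317. The next 2 lie in introns 7 and 8 of Eya2, at chr2:165543820-165544061 and chr2:165553059-165553348. The last lies in coding exon 3 of Sall1, at chr8:91556416-91556623. Eya4 and Sall1 are transcribed from the minus strand.
Eya4 intron 2: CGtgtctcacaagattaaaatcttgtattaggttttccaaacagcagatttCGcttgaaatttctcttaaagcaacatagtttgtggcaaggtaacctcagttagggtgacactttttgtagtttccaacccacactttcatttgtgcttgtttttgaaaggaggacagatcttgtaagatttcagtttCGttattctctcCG
Eya2 intron 7: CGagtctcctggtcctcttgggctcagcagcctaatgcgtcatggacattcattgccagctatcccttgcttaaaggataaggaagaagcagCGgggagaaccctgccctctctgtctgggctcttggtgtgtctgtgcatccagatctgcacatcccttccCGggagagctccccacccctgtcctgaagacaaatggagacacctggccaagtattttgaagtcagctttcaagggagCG
Eya2 intron 8: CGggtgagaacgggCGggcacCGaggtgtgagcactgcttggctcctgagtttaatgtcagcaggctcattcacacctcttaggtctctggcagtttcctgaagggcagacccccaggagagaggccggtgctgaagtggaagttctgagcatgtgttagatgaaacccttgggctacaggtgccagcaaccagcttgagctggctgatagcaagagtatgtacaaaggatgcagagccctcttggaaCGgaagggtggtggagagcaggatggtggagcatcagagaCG
Sall1 exon 3: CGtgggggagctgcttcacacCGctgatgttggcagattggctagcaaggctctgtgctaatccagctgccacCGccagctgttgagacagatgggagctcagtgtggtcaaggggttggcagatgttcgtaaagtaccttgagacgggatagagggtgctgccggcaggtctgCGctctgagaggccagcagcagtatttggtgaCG

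The 4 stretches were chosen for their calls, so their levels are a description. In the 203 bases of Eya4, 112385 bp or more from the gene start, all 4 CpGs were called in at least 1 comparison. Over these 4 the level was 61.9%, 55.1% and 55.0% in F-MTAza, 55.6%, 36.9% and 47.6% in NP-MTAza, 47.0% in Aza replicate 3, and 91.2%, 94.0% and 86.7% in PBS. In the intron 7 stretch of Eya2, 4 of 5 CpGs were called, and those stood at 51.9%, 82.6% and 70.6% in F-MTAza, 75.0%, 47.7% and 54.4% in NP-MTAza, 50.0% in Aza replicate 3 and 97.2%, 96.6% and 94.7% in PBS. In the intron 8 stretch of Eya2, 5 of 7 CpGs were called. Their level was 55.8%, 36.6% and 70.8% in F-MTAza, 19.5%, 48.4% and 47.7% in NP-MTAza, 75.0% in Aza replicate 3, and 94.7%, 92.9% and 97.3% in PBS. In coding exon 3 of Sall1, 5 of 8 CpGs were called, and those stood at 70.3%, 57.3% and 60.3% in F-MTAza, 67.5%, 50.5% and 61.6% in NP-MTAza, 67.5% in Aza replicate 3 and 89.9%, 100% and 97.6% in PBS. The called CpGs were at 86.7% or more in every PBS library and kept part of it in every treated library. The Eya2 stretches rested on few reads, 17 to 114 per compared library in intron 7 and 24 to 74 in intron 8, and spread from 47.7% to 82.6% and from 19.5% to 75.0% in the treated libraries.

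Levels of gene parts were compared over 880 CpGs of the 8 genes, those with at least 5 reads in at least 2 of the 3 libraries of F-MTAza, NP-MTAza and PBS. The Sall genes held 538 of them and the Eya genes 342. Not every library had reads at each of these CpGs, so levels of a part can rest partly on different CpGs. In the Sall1 exons, for instance, 44 CpGs were compared, and 16 had at least 5 reads in all F-MTAza and PBS libraries. Of the 32 gene parts, 5 held no such CpG (the promoter of Eya1 and the upstream parts of the 4 Eya genes), and 8 held too few CpGs or reads for the test (the upstream parts of Sall1, Sall2 and Sall4, the promoters of Sall2 and Eya3, and the exons of Eya1, Eya3 and Eya4). The other 19 were tested with limma beside every gene part of the genome, and a call needed both an adjusted p below 0.05 and 10 or more points of difference. F-MTAza and NP-MTAza together, called the combination here, were set against PBS first.

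Methylation of 15 of the 19 parts fell in the combination, and none rose. The background for this count is 70.5% of all 32542 gene parts tested, so losing methylation was the common outcome across the genome. The median difference was -21.76 points over the 19 parts and -23.46 points over all parts. In the same 15 parts all 6 combination libraries lay below all 3 PBS libraries, which held for 65.7% of all parts. Of the members, 5 of 5 exon parts fell, against 84.8% of all exon parts, as did 6 of 8 intron parts, against 87.7% of all intron parts, 3 of 5 promoters, against 34.5% of all promoters, and 1 of 1 upstream part, against 83.1% of all upstream parts. The 4 parts not called were the Sall1 introns, the Sall2 introns and the promoters of Eya2 and Eya4. A call needed 10 points, so the Sall1 introns, at 4.44% in PBS, could not be called lower. The Eya2 and Eya4 promoters, at 10.7% and 10.5% in PBS, could be only by losing nearly all methylation. Of the 9820 promoters tested, 4465 had a PBS level under 10% and could not be called lower either. In the 16 tested parts with a PBS level of at least 20%, the combination kept a median of 65.1% of the PBS level, and over 25711 such parts of all genes it kept 65.5%.

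**Figure D1:**
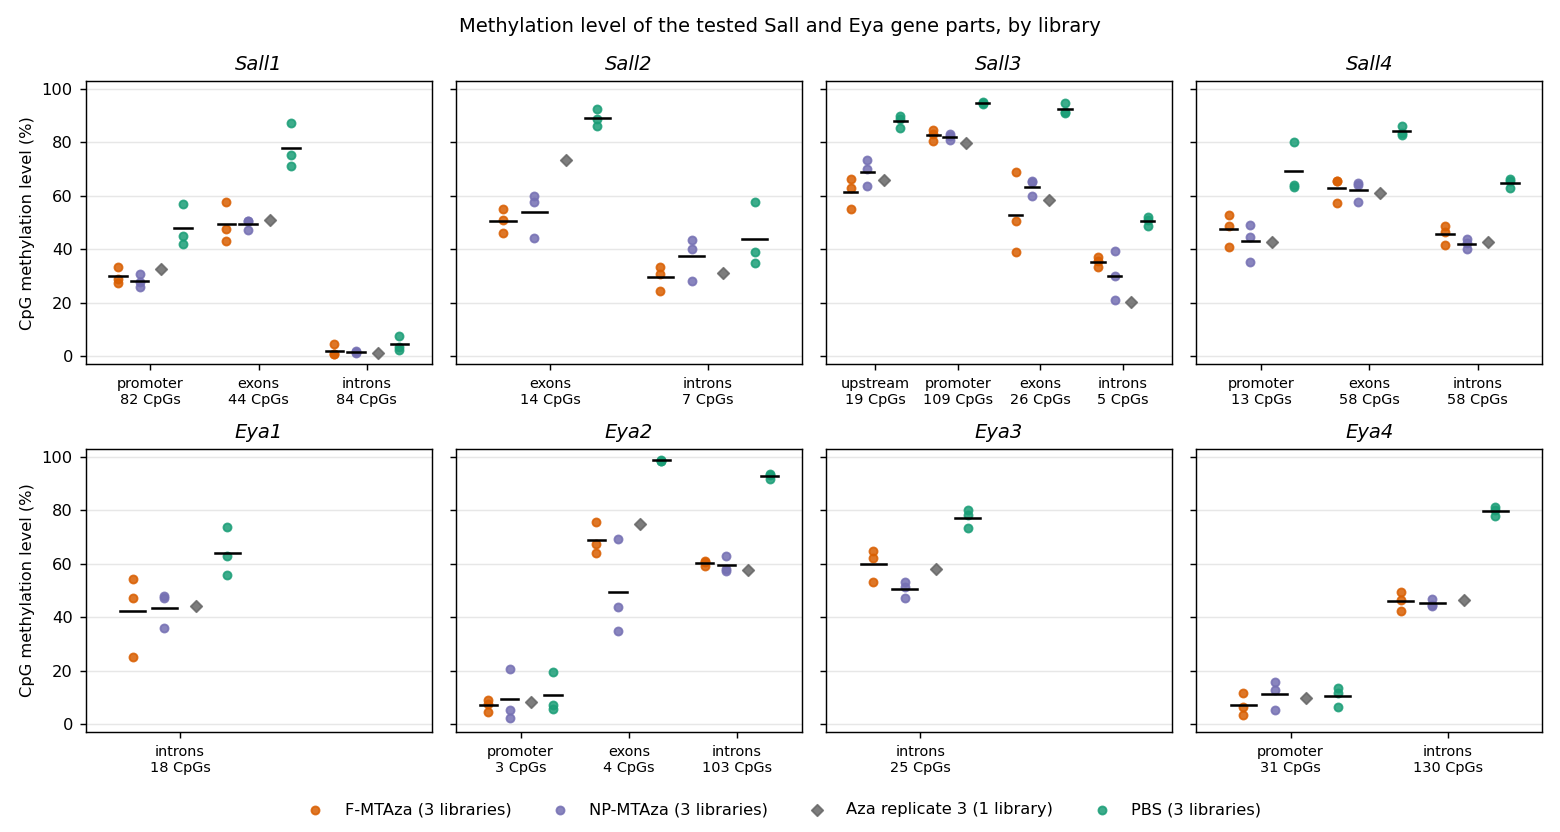
Methylation level (%) of each tested part of the 8 genes, with 1 point per library and a black bar at the mean of 3 libraries, for F-MTAza, NP-MTAza, Aza replicate 3 and PBS. The treated libraries lie below the PBS libraries in 15 of 19 parts, and the groups overlap at the Sall1 introns, the Sall2 introns and the promoters of Eya2 and Eya4.

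Sall1 changed at its promoter and in its later exons. Its introns held little methylation in every group, but the CpGs compared there lay mostly within 7000 bp of the start. The gene spans chr8:91551147-91568061 on the minus strand. Its promoter (82 CpGs) was methylated at 33.5%, 28.8% and 27.3% in F-MTAza, 27.8%, 30.6% and 25.9% in NP-MTAza, 32.6% in Aza replicate 3 and 42.2%, 45.0% and 57.0% in PBS. No treated library reached the lowest PBS library, with 632 to 2412 reads behind each value in the 9 compared libraries. The combination fell by 19.03 points (limma, adjusted p = 0.0016). Its exons (44 CpGs) stood at 47.7%, 43.1% and 57.6% in F-MTAza, 47.3%, 50.7% and 50.5% in NP-MTAza, 51.0% in Aza replicate 3 and 75.5%, 87.2% and 71.2% in PBS. In the combination the level fell by 28.46 points (limma, adjusted p = 0.00042). Its introns (84 CpGs) averaged 1.97% ± 2.28 in F-MTAza, 1.53% ± 0.490 in NP-MTAza and 4.44% ± 2.76 in PBS (SD, n = 3 each), and Aza replicate 3 stood at 1.38% (95% Wilson interval 0.866 to 2.21%). The difference of -2.69 points at the introns was not called (limma, adjusted p = 0.12), and the groups overlapped. An intron CpG farther in, 10469 bp after the start, stood at 86.2%, 100% and 100% in PBS. It was called lower in both F-MTAza and NP-MTAza, by 47.3 and 39.8 points.

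The Sall1 level dropped around the gene start in every group. More than 1000 bp upstream, 34 CpGs averaged 73.3% ± 1.39 in F-MTAza, 69.1% ± 10.1 in NP-MTAza and 94.1% ± 5.11 in PBS (SD, n = 3 each). In the last 1000 bp before the start the level was 31.7% ± 7.29 in F-MTAza, 33.3% ± 2.49 in NP-MTAza and 59.8% ± 12.0 in PBS. Methylation was lower still after the start. The 31 CpGs of the first 1000 bp averaged 5.18% ± 2.45 in F-MTAza, 5.10% ± 0.544 in NP-MTAza and 10.1% ± 2.57 in PBS, and the 81 CpGs between 1000 and 7000 bp averaged 0.979% ± 1.26, 0.668% ± 0.337 and 2.50% ± 2.45 in F-MTAza, NP-MTAza and PBS. Beyond 10000 bp the gene was again highly methylated in PBS, with 65.4% ± 4.92 in F-MTAza, 65.7% ± 1.66 in NP-MTAza and 95.6% ± 3.05 in PBS over 38 CpGs. Of the 218 Sall1 CpGs compared, 104 had a pooled PBS level under 10%, and those averaged 0.643% in the combination. Another 78 with a PBS level of at least 80% averaged 66.7% in the combination and 94.9% in PBS. The largest cluster of called CpGs in NP-MTAza was the coding stretch of exon 3 printed above.

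**Figure D2:**
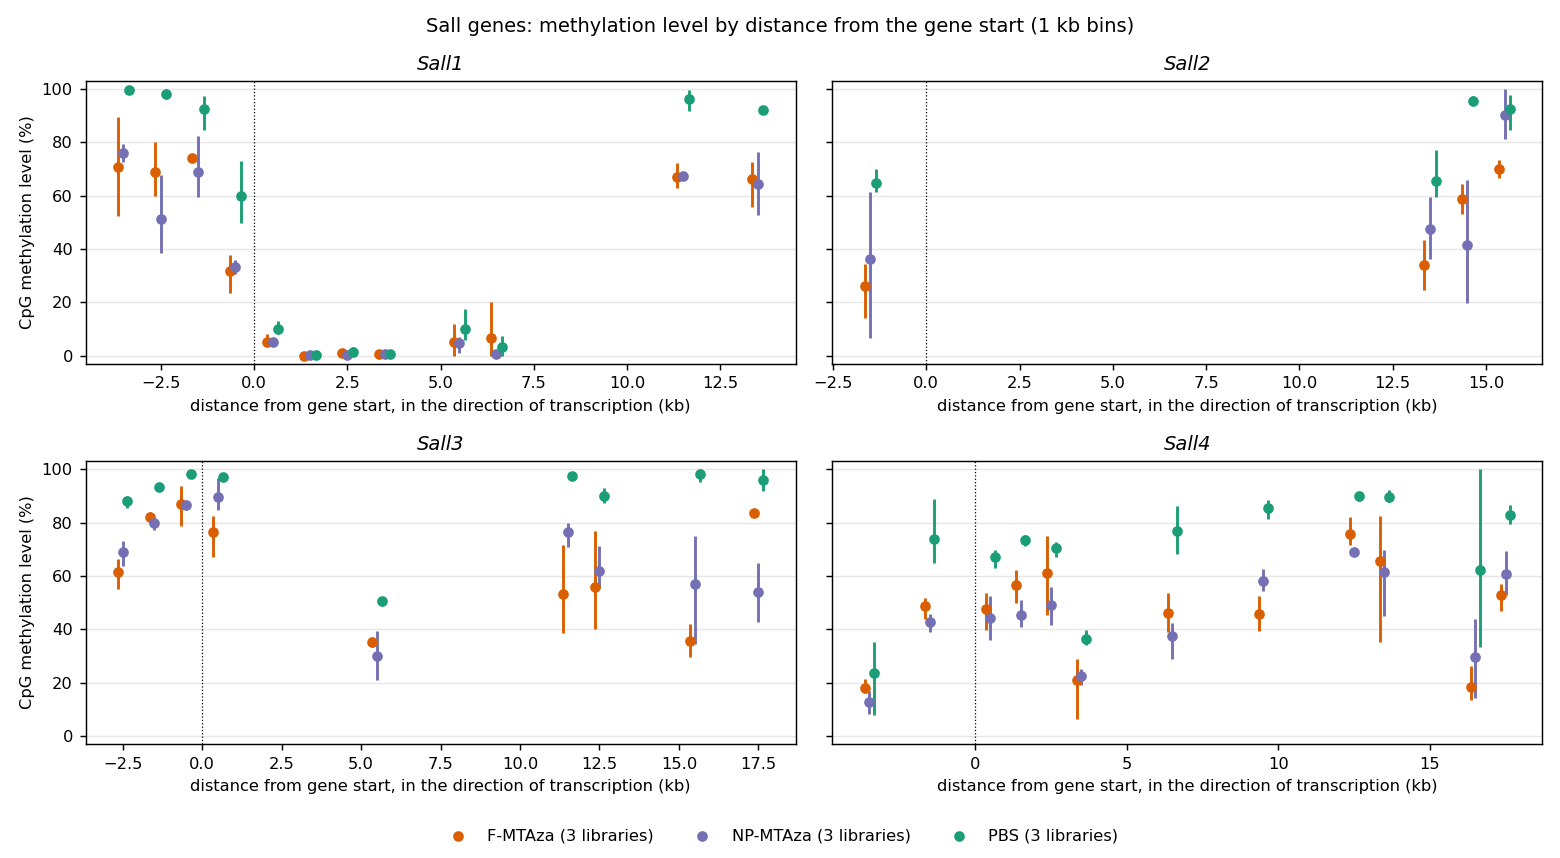
Methylation level (%) of the Sall genes in bins of 1 kb by distance from the gene start (dotted line), for bins with at least 3 CpGs. Points are means of 3 libraries and bars run from the lowest to the highest library, with F-MTAza, NP-MTAza and PBS side by side. Sall1 is near 0 after its start, where PBS averages 0.354% in the second kb, while Sall3 is at 97.3% in PBS in its first kb.

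The Sall3 promoter had a far higher PBS level than that of Sall1, which was intermediate, and lost comparatively little. Sall3, at chr18:81163115-81183317 on the minus strand, is needed in the mouse for cranial nerves and the palate. Its 109 promoter CpGs stood at 84.7%, 80.7% and 83.2% in F-MTAza, 83.1%, 80.9% and 82.3% in NP-MTAza, 79.8% in Aza replicate 3 (95% Wilson interval 78.0 to 81.5%) and 95.3%, 94.8% and 94.6% in PBS. The libraries of a group lay close together, and all treated libraries lay below PBS. The level fell by 12.39 points in the combination (limma, adjusted p = 0.00018). The promoter sequence holds 269 CpGs, a number that 6 genes of the genome reach, Sall3 included, while that of Sall1 holds 127, and the median gene holds 58. Of 1762 tested promoters with at least 121 CpGs in their sequence, the 90th percentile of all genes, the median PBS level was 6.82% and 79 had a PBS level of at least 90%. Sall3 kept 86.9% of its PBS level. Among 646 promoters with a PBS level of at least 90%, 25 kept more, and among the 26 of them with at least 50 CpGs compared the median kept was 84.3% and 5 kept more than Sall3.

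The rest of Sall3 lost more. Its exons (26 CpGs) stood at 38.9%, 50.7% and 69.0% in F-MTAza, 59.9%, 65.2% and 65.4% in NP-MTAza, 58.6% in Aza replicate 3 and 94.6%, 91.4% and 91.2% in PBS. In the combination the level fell by 34.19 points (limma, adjusted p = 0.00017). F-MTAza replicate 1 was the lowest library there. The upstream part (19 CpGs) fell by 22.83 points, at 61.5% ± 5.90 in F-MTAza, 69.0% ± 4.86 in NP-MTAza and 88.1% ± 2.23 in PBS (SD, n = 3 each, limma, adjusted p = 0.00017). The introns (5 CpGs, 24 to 139 reads) fell by 17.89 points, at 35.4% ± 1.92 in F-MTAza, 30.1% ± 9.29 in NP-MTAza and 50.6% ± 1.86 in PBS (limma, adjusted p = 0.0039). Within each library the Sall3 promoter exceeded the Sall3 exons by 14.2 to 45.8 points in the 6 combination libraries and by 0.651 to 3.43 points in the 3 PBS libraries. Against the Eya2 introns, which had a like PBS level, the Sall3 promoter was higher by 19.5 to 25.9 points in the combination libraries and by 1.53 to 2.72 points in PBS. Both contrasts were chosen after the levels had been seen, so they are a description with no test.

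Sall4 fell in each of its 3 tested parts by about the same number of points. Sall4, a pluripotency factor of early embryos and stem cells, lies at chr2:168573832-168593443 on the minus strand, and its start is overlapped by the long non-coding gene Gm14261. The promoter (13 CpGs) stood at 40.9%, 52.9% and 48.9% in F-MTAza, 49.2%, 44.8% and 35.2% in NP-MTAza, 42.9% in Aza replicate 3 and 64.1%, 80% and 63.5% in PBS. The level fell by 23.87 points in the combination (limma, adjusted p = 0.0023), and no treated library reached PBS. The exons (58 CpGs) fell by 21.76 points, at 62.9% ± 4.82 in F-MTAza, 62.2% ± 4.00 in NP-MTAza and 84.3% ± 1.70 in PBS (SD, n = 3 each, limma, adjusted p = 0.00016). The introns (58 CpGs) fell by 21.10 points, at 45.6% ± 3.62 in F-MTAza, 42.1% ± 1.87 in NP-MTAza and 64.9% ± 1.80 in PBS (limma, adjusted p = 0.0002). Of its 135 CpGs compared, 64 had a PBS level between 10% and 80%, against 36 of 218 in Sall1. Sall4 also has protein-coding starts 742, 2697 and 12000 bp after the gene start. The region around the start 742 bp downstream (36 CpGs) was at 40.9%, 49.4% and 56.8% in F-MTAza, 43.7%, 52.0% and 36.0% in NP-MTAza and 63.2%, 69.6% and 68.1% in PBS, with all treated libraries below PBS.

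Sall2 was read at few CpGs. Sall2, whose loss leaves the optic fissure of the mouse eye unclosed, lies at chr14:52930847-52948437 on the minus strand. Its exons (14 CpGs) stood at 54.9%, 51.0% and 46.0% in F-MTAza, 44.4%, 59.8% and 57.6% in NP-MTAza and 92.6%, 88.7% and 86.1% in PBS. In the combination the level fell by 36.84 points (limma, adjusted p = 3.4e-05). Only 1 exon CpG had at least 5 reads in all F-MTAza and PBS libraries, so these levels rest partly on different CpGs. F-MTAza replicate 3, for instance, had no value from 14000 to 15000 bp after the start, where PBS averaged 95.4%. Aza replicate 3 stood at 73.3% (95% Wilson interval 66.4 to 79.3%), between the combination and PBS. Its introns (7 CpGs, 48 to 138 reads) stood at 33.3%, 24.6% and 30.6% in F-MTAza, 40.2%, 43.5% and 28.3% in NP-MTAza and 34.8%, 57.5% and 39.0% in PBS. The groups overlapped, and the difference of -10.36 points was not called (limma, adjusted p = 0.12), although without F-MTAza replicate 1 it was -16.85 points and called (adjusted p = 0.048). The 3 CpGs of its promoter, not tested, were at 30.0%, 14.0% and 34.5% in F-MTAza, 6.45%, 61.5% and 40.5% in NP-MTAza and 62.3%, 61.5% and 70.1% in PBS.

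Methylation of the introns fell by more than 30 points in both Eya2 and Eya4. The promoters of both were low in PBS, with little room to fall, and were not called. Eya4, mutated in human hearing loss, lies at chr10:22823974-23069701 on the minus strand. Its introns (130 CpGs) stood at 49.3%, 46.6% and 42.2% in F-MTAza, 46.7%, 44.1% and 44.7% in NP-MTAza, 46.3% in Aza replicate 3 and 77.9%, 81.2% and 80% in PBS. The 7 treated libraries lay within a few points of each other and far below PBS, and the combination fell by 34.07 points (limma, adjusted p = 1.5e-05). Over all introns with a PBS level of 70% to 80% the median difference was -27.17 points and the 5th percentile -35.26 points. The Eya4 introns, at 79.7% in PBS, lay at the top of that range. For a PBS level of 80% to 90% the median was -30.22 points and the 5th percentile -37.92 points. Eya2 lies at chr2:165480798-165597227 on the plus strand. Its introns (103 CpGs) stood at 61.2%, 60.7% and 59.3% in F-MTAza, 57.2%, 58.2% and 62.8% in NP-MTAza, 57.5% in Aza replicate 3 and 93.6%, 93.3% and 91.9% in PBS. The level fell by 32.99 points in the combination (limma, adjusted p = 1.2e-05). Over all introns with a PBS level of 90% to 100% the median difference was -33.33 points, so this loss was typical. The 4 CpGs of its exons stood at 67.4%, 75.6% and 64.1% in F-MTAza, 34.9%, 69.1% and 43.9% in NP-MTAza and 98.7%, 98.4% and 99.0% in PBS. In the combination the level fell by 39.53 points (limma, adjusted p = 6.5e-05). Those exons rest on 39 to 101 reads per library, and NP-MTAza spread widely there.

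The promoters of Eya4, Eya2 and Eya3 were low in every group. The Eya4 promoter (31 CpGs) stood at 3.54%, 11.8% and 6.58% in F-MTAza, 15.7%, 12.7% and 5.40% in NP-MTAza, 9.74% in Aza replicate 3 and 13.4%, 6.43% and 11.8% in PBS. The groups overlapped, and the difference of -1.26 points was not called (limma, adjusted p = 0.65). The 3 CpGs of the Eya2 promoter stood at 9.09%, 7.69% and 4.55% in F-MTAza, 20.5%, 2.38% and 5.45% in NP-MTAza and 7.04%, 19.6% and 5.56% in PBS, with no call (limma, adjusted p = 0.59). The Eya3 promoter (12 CpGs, 12 to 164 reads) had too few reads in some libraries for the test. It had 1 methylated read of 76 in F-MTAza replicate 3 and of 129 in PBS replicate 3, and 0 in the other 7 compared libraries, where a count of 0 allows a level of up to 1.83% (NP-MTAza replicate 2) to 25% (F-MTAza replicate 1 and PBS replicate 2). Intervals and such limits cover counting error only, and 1 read over several CpGs counts at each, so they may be too narrow.

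**Figure D3:**
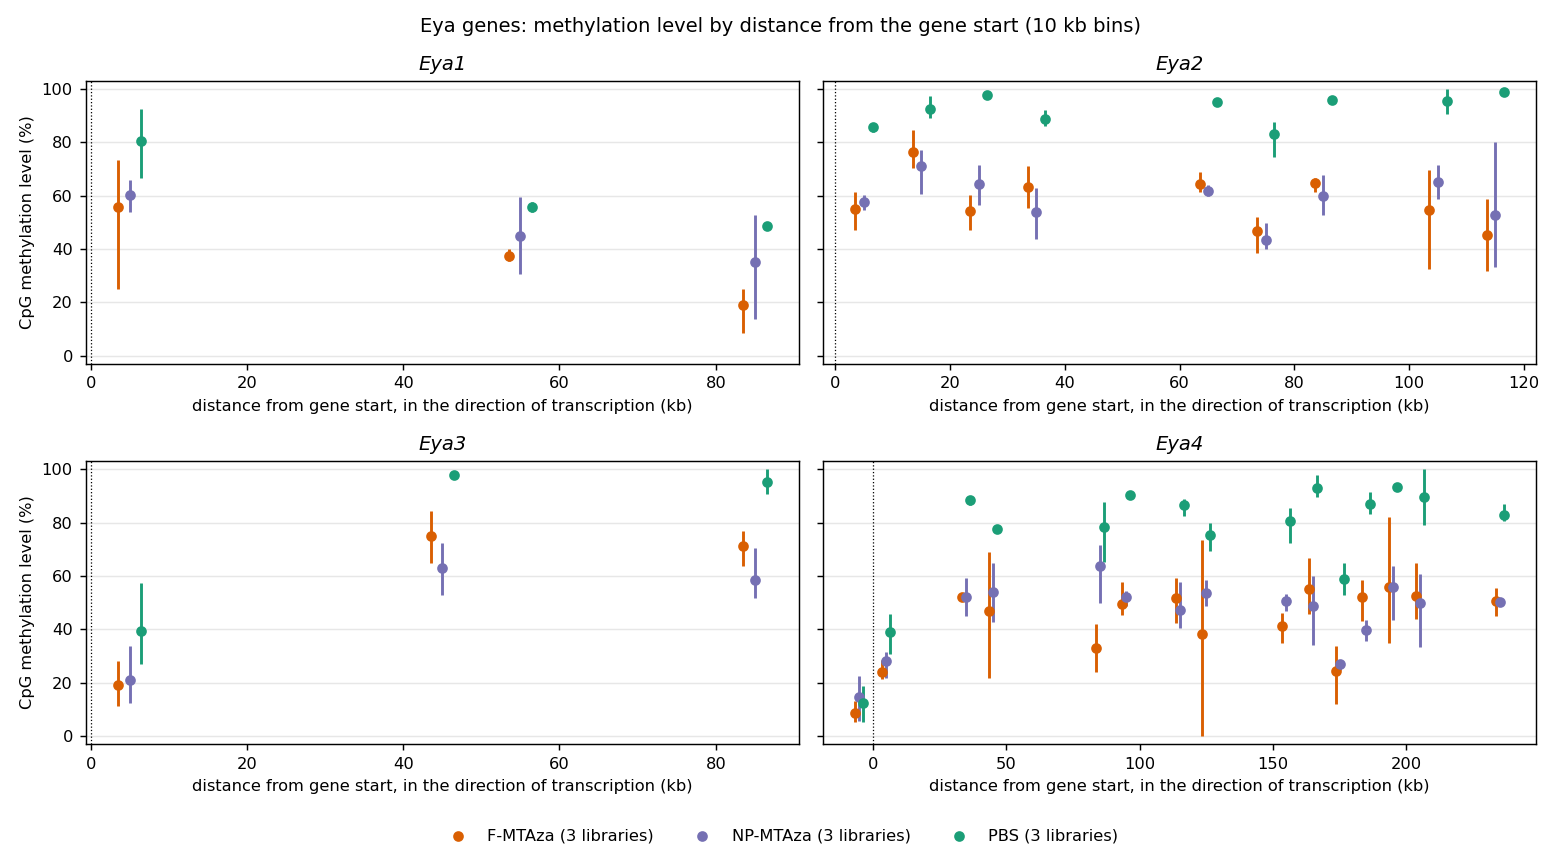
Methylation level (%) of the Eya genes in bins of 10 kb by distance from the gene start (dotted line), for bins with at least 3 CpGs. Points are means of 3 libraries and bars run from the lowest to the highest library, with F-MTAza, NP-MTAza and PBS side by side. Eya2 and Eya4 lie lower in the treated groups along their whole bodies, while the bin before the Eya4 start is at 8.75%, 14.5% and 12.4% in F-MTAza, NP-MTAza and PBS.

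Eya1 and Eya3 were sampled thinly. Eya1, the EYA gene of the nephron progenitor, lies at chr1:14159035-14300281 on the minus strand, and none of its promoter CpGs entered the comparison. Its introns (18 CpGs) stood at 25%, 47.4% and 54.3% in F-MTAza, 35.8%, 47.8% and 47.2% in NP-MTAza, 44.1% in Aza replicate 3 and 63.0%, 73.8% and 55.7% in PBS. The level fell by 21.25 points in the combination (limma, adjusted p = 0.019), but the highest F-MTAza and lowest PBS libraries were close. The call was lost, by limma, without NP-MTAza replicate 1 (adjusted p = 0.072), NP-MTAza replicate 3 (0.052), PBS replicate 1 (0.054) or PBS replicate 2 (0.067), with differences between -16.55 and -21.04 points. Eya3 lies at chr4:132194902-132280680 on the plus strand. Its introns (25 CpGs) stood at 62.0%, 53.3% and 64.8% in F-MTAza, 53.3%, 47.3% and 51.4% in NP-MTAza, 58.1% in Aza replicate 3 and 80.2%, 78.4% and 73.3% in PBS. In the combination the level fell by 21.99 points (limma, adjusted p = 0.00036).

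**Figure D4:**
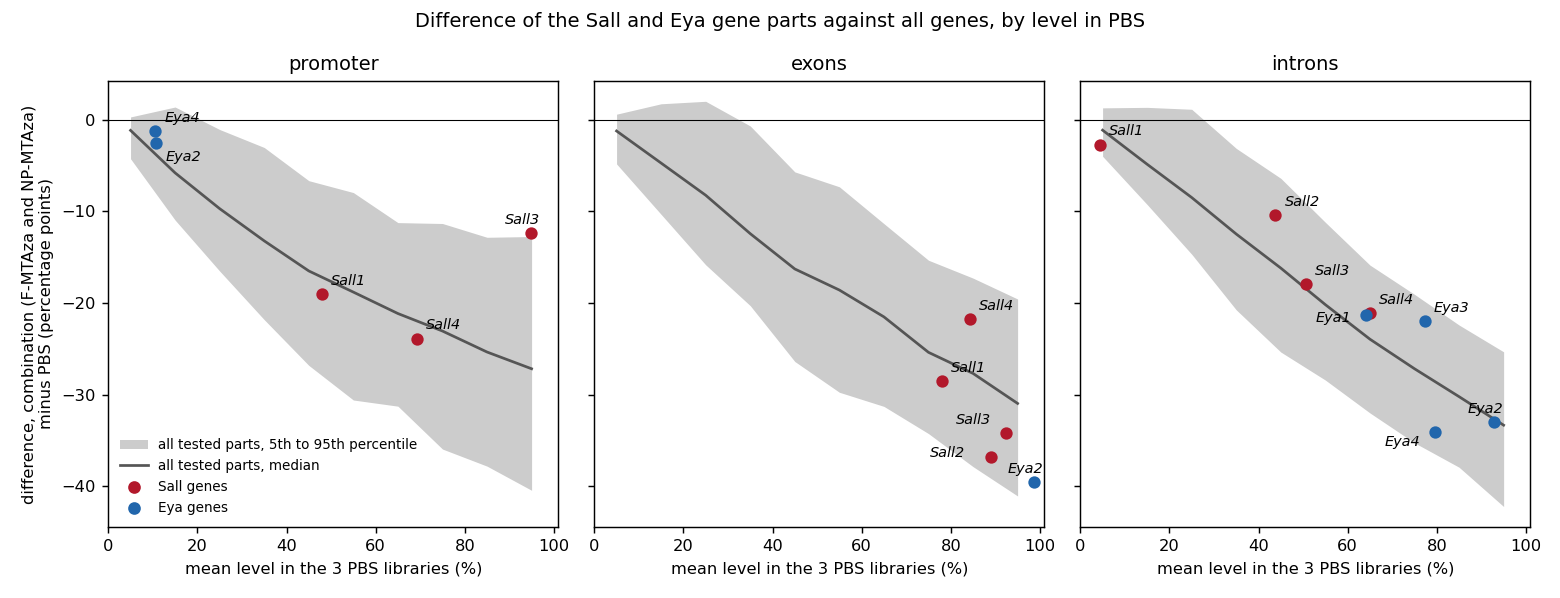
Difference of the combination minus PBS (percentage points) against the mean PBS level (%) for the tested promoters, exons and introns of the Sall and Eya genes. The line and the grey band give the median and the 5th to 95th percentile of all tested parts of that kind in bins of 10 points of PBS level. The Sall3 promoter lies at -12.39 points, above the band, and the other 4 member promoters lie inside it. Every tested exon and intron part of the members lies within the 5th to 95th percentile of its bin.

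Each delivery form was then set against PBS. F-MTAza lowered 15 of the 19 parts, against 66.0% of all parts, with adjusted p-values of up to 0.032 (limma), and NP-MTAza lowered 15 of the 19, against 68.0% of all parts, with values of up to 0.043 (limma). The 2 comparisons share the PBS libraries. In F-MTAza and NP-MTAza the difference from PBS was -33.63 and -34.52 points at the Eya4 introns, -32.47 and -33.50 points at the Eya2 introns, -18.14 and -19.93 points at the Sall1 promoter and -12.00 and -12.79 points at the Sall3 promoter. Micelle against free delivery, the comparison that asks whether the carrier matters, gave 0 calls among the 19 parts and 0 among all 32542 parts in limma, with 1 of 19 and 1725 of 32542 at an unadjusted p under 0.05. The 1 was the Eya2 exons, at -19.73 points (NP-MTAza minus F-MTAza, limma, unadjusted p = 0.031, adjusted p = 0.9). The differences between the delivery forms lay between -19.73 and 10.66 points, the last at the Sall3 exons.

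Single CpGs were compared where all 6 libraries of a comparison had at least 5 reads. In F-MTAza 73 of 400 CpGs of the 8 genes were called lower, against 22.0% of all CpGs tested, and 0 were called higher by this test, with 23 called higher in the genome. In NP-MTAza 106 of 576 were called lower, against 25.9% of all CpGs tested. The shares among members were 18.2% and 18.4%. By family and part the counts were as follows, with no test between them. In the Eya introns 43 of 106 CpGs were called in F-MTAza and 64 of 149 in NP-MTAza, against 27.7% and 32.2% of the intron CpGs of all genes, with Eya4 giving 22 and 28 and Eya2 giving 19 and 32. In the Sall promoters 2 of 132 were called in F-MTAza and 5 of 170 in NP-MTAza, against 5.74% and 7.05% of the promoter CpGs of all genes, and at the Sall3 promoter 0 of 78 and 1 of 103. The shares over all genes are not matched for PBS level. The median PBS level was 14.4% over all promoters tested and 77.5% over all introns. It was 94.9% at the Sall3 promoter, 92.9% at the Eya2 introns and 79.7% at the Eya4 introns. With a test that estimates the extra spread between libraries at each CpG, 35 member CpGs were called lower in F-MTAza and 44 in NP-MTAza, against 9.08% and 11.0% of all CpGs tested.

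The sole CpG called higher was in Sall4. It lies 273 bp after the start, at chr2:168593170, and it stood at 50.0%, 40.0% and 54.5% in NP-MTAza (6, 5 and 11 reads) and at 0%, 33.3% and 13.3% in PBS (14, 6 and 15 reads), with a q of 0.0028. Higher calls made up 0.00479% of all CpGs tested in NP-MTAza. The groups did not overlap, but the call was lost without PBS replicate 1 or NP-MTAza replicate 3, or when at least 10 reads were asked for. Between NP-MTAza and F-MTAza, 0 of 470 member CpGs were called, where 0.0310% of all CpGs tested were, and the test with extra spread also called 0.

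The stretch with the most NP-MTAza calls in each gene was as follows, again as a description. Eya4 held 9 called of 12 tested CpGs over 1071 bp in intron 2 and Eya2 held 6 of 8 over 655 bp in intron 7. Sall4 held only 4 of 27 over 696 bp across its promoter, exons and introns. Sall1 held 4 of 5 over 208 bp and Sall2 held 4 of 4 over 62 bp, both in coding exons. The CpGs of the Sall2 stretch could not be tested in F-MTAza, since replicate 3 had fewer than 5 reads at each of them. F-MTAza replicates 1 and 2 stood there at 57.1% and 62.7%, beside 93.1%, 95% and 95.5% in PBS. Sall3 and Eya3 held 2 each, and Eya1 held 1. By F-MTAza calls Sall3 held a larger stretch, singled out after its values were seen. At chr18:81171207-81171350, in its exons, 8 of 9 CpGs were called lower in F-MTAza and 1 in NP-MTAza. Those 8 stood at 36.3%, 50.6% and 75.4% in F-MTAza, 65.5%, 71.7% and 80.6% in NP-MTAza, 55.8% in Aza replicate 3 and 97.7%, 97.6% and 99.3% in PBS. F-MTAza had 6 calls inside the Eya4 stretch and 3 inside that of Eya2.

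Aza alone was measured here by replicate 3. Its level lay below all 3 PBS libraries in 17 of the 19 tested parts, the exceptions being the promoters of Eya2 and Eya4, and within the range of the 6 combination libraries in 16 of 19. The exceptions were the Sall2 exons, where it was higher than the combination, and the Sall3 promoter and introns, where it was just below it. In the Sall3 introns it stood at 20.4% (95% Wilson interval 14.8 to 27.5%), beside 20.9% in the lowest combination library. No share over all gene parts stands beside the counts of 17 and 16, so they do not set these genes apart. At 181 of 722 CpGs with at least 5 reads in Aza replicate 3 and all PBS libraries the level was at least 35 points below pooled PBS, against 30.6% of all CpGs, and at 0 it was at least 35 points above. By part, 37 of 74 CpGs met this in the Eya4 introns and 39 of 85 in the Eya2 introns, against 36.6% of all intron CpGs, and 12 of 127 at the Sall3 promoter, against 9.87% of all promoter CpGs. These shares are not matched for PBS level. That level was 94.9% at the Sall3 promoter, while the median over all promoters tested was 14.4%, where most CpGs cannot fall by 35 points. With 1 library these differences have no replicate check.

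Genes that act with SALL and EYA proteins were read in the same way. Of 10 genes of the Pax, sine oculis and Dach families, which act with EYA proteins, 25 parts were tested in the combination, of which 17 fell and 0 rose, with a median of -18.89 points, beside 70.5% and -23.46 points over all parts. The introns of Pax8, an early nephron factor, averaged 37.8% ± 10.3 in F-MTAza, 50.5% ± 1.42 in NP-MTAza and 83.2% ± 4.38 in PBS (SD, n = 3 each). The exons of Six2, the nephron progenitor factor, averaged 49.9% ± 10.8, 53.2% ± 0.935 and 83.4% ± 13.1 in the same groups, and the introns of Pax2 43.3% ± 6.26, 41.6% ± 5.28 and 72.2% ± 6.10. The Pax2 promoter did not pass, at 0.930% in PBS. Of 15 genes of the metanephric mesenchyme and early nephron, 39 of 43 tested parts fell and 0 rose, with a median of -22.66 points, beside the same 70.5% over all parts. The exons of Gdnf, the ligand that draws in the ureteric bud, averaged 67.7% ± 12.2 in F-MTAza, 64.1% ± 8.49 in NP-MTAza and 95.6% ± 1.72 in PBS, the introns of its co-receptor Gfra1 52.7% ± 0.857, 49.9% ± 2.24 and 80.9% ± 1.76, and the exons of Meox1 52.4% ± 8.56, 57.1% ± 20.6 and 84.0% ± 8.43. Of 12 NuRD subunits 10 could be read, and 21 of their 26 parts fell and 0 rose, with a median of -26.93 points, again beside 70.5% over all parts. No list was tested against other genes. The introns of the deacetylase Hdac1 averaged 55.6% ± 4.97, 55.8% ± 3.66 and 95.7% ± 2.75, those of Mta1 55.4% ± 10.4, 55.5% ± 5.51 and 95% ± 4.39, and those of the methyl-CpG binding protein Mbd2 47.6% ± 6.77, 41.0% ± 2.48 and 81.9% ± 5.79. No part of the 3 lists was called between NP-MTAza and F-MTAza.

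The gene whose whole window was most like that of each member, by the mean absolute difference of its level over 10 libraries among 13041 genes with at least 20 CpGs compared, was Myb for Sall1 (1.44 points), Rassf2 for Sall2 (2.90), Fcgr3 for Sall3 (1.33), B3gat2 for Sall4 (1.27), Akap1 for Eya1 (3.55), Inadl for Eya2 (1.04), Fancd2 for Eya3 (3.06) and Tmtc2 for Eya4 (1.25). Sall2, Eya1 and Eya3, with 26, 25 and 41 CpGs, lay farthest from theirs.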

How the data were processed

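DNA methylation was measured in 12 libraries. Per the study's methods, DNA was cut with MspI, size-selected, bisulfite-converted and read in pairs. Trim Galore 0.4.4 for trimming and Bismark 0.20.1 with Bowtie2 for alignment on mm9 are the tools named by the authors, who joined the strands of each CpG and required 5 reads. In the deposited tables stand each CpG's methylated and total read numbers and a percent, which equalled the rounded-down ratio in at least 99.9977% of the lines of each library. Levels were computed here from the read numbers. PCR copies cannot be told apart, and CpGs away from the cut sites are not seen.

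A gene part's level is its methylated reads over all reads at 1291894 shared CpGs. Parts with at least 3 shared CpGs and 20 reads in each of 9 libraries were tested on the arcsine square root scale with limma 3.58.1 in R 4.3.3, with Benjamini-Hochberg adjustment over all parts. A CpG counted for the promoters or introns of all genes if it lay in that part of any gene. Single CpGs were tested by a likelihood ratio test on the reads summed over a group's libraries. Both tests were tested on simulated data. Called CpGs within 500 bp were joined. Sequences came from the mm9 genome. Python 3.11.15, numpy 2.4.6, pandas 2.3.3, scipy 1.17.1 and matplotlib 3.10.9 were used.

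Named were all 8 members, the stretch of each with the most NP-MTAza calls, at most 3 genes per list (largest called difference), and the gene with the most similar window. The members and lists were chosen with earlier results of these data known. Alternatives covered the coverage minimum, the CpGs used, the weighting, the scale, the filters, the thresholds, the promoter definition, the test, a replicate block and each library left out. Some marker results are not reported here.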

Additional observations from a re-analysis of the deposited data

Results flagged for a closer look

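Aza replicates 1 and 2, which no comparison uses, held methylation where the other 10 libraries had little. At the Sall1 introns they stood at 26.8% and 49.1%, against 1.38% in Aza replicate 3 and 4.44% ± 2.76 in PBS (SD, n = 3). At the Eya3 promoter they stood at 44.0% and 53.1%, against 0% in Aza replicate 3 and at most 0.775% in PBS. At the Eya4 promoter they stood at 58.7% and 59.0%, against 9.74% in Aza replicate 3 and 10.5% ± 3.65 in PBS (SD, n = 3). At the CpGs of the 8 genes the read numbers of these 2 libraries followed those of the other libraries with Spearman correlations between -0.090 and 0.17, against 0.35 to 0.65 among the other 10, and what made them differ was not tested.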

How the results depend on the processing

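The 15 parts lower in the combination, F-MTAza and NP-MTAza became 9 each of 11 tested with at least 10 reads per CpG, where fewer parts could be tested, and between 12 and 20 under the other settings. In the combination, 12 of 16 parts were lower with at least 5 reads in all 9 libraries, beside 17489 of 25164 of all parts. With no filter on gene parts 20 of 26 were, beside 28090 of 41260. At the minimum of 10 reads the count over all parts was 10437 of 14376. Leaving out a library gave 14 to 18 for the combination, 13 to 16 for F-MTAza and 13 to 16 for NP-MTAza. Micelle against free delivery gave 0 to 0 calls. Of 325 differences of single parts under these settings, 314 kept their direction and call, 5 (the Eya1 introns) lost the call, 3 (the Sall2 introns) gained it and 3 uncalled promoter differences changed sign. At 25 points, 128 of 400 member CpGs were lower in F-MTAza and 218 of 576 in NP-MTAza. Over all CpGs tested the counts were 204483 of 512170 and 368109 of 814760. At 50 points 14 and 22 were lower, beside 21696 and 40108 of all CpGs. With extra spread estimated per CpG 35 and 44 were lower, beside 9.08% and 11.0% of all CpGs. With limma per CpG 11 and 17 were lower, beside 14573 and 45019 of all CpGs. With at least 10 reads 8 of 85 and 28 of 214 were lower, beside 23215 of 111960 and 69644 of 274131 of all CpGs. With a library left out 74 to 94 of 402 to 506 and 115 to 159 of 595 to 770 were lower, where more CpGs reached 5 reads in all libraries. Over all CpGs the counts were then 118500 to 151321 of 527530 to 697424 and 211226 to 292498 of 843529 to 1153217. The 1 CpG higher in NP-MTAza became 0 at 50 points, with extra spread, with at least 10 reads and with limma per CpG, and 0 to 1 with a library left out. In F-MTAza it stayed 0 to 0. CpGs lower in Aza replicate 3 numbered 293 at 25 points and 66 with at least 10 reads.

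Same-numbered libraries did not deviate together (correlations between -0.056 and 0.015), and other pairs across groups gave -0.040 to 0.070. Such values cannot show whether same-numbered libraries were cultured or handled together. With a replicate block in limma the combination, F-MTAza and NP-MTAza each again had 15 parts called lower. With limma per CpG and a replicate block 0 CpGs were called lower in F-MTAza and 0 in NP-MTAza, where 0 were called among all CpGs tested, and 0 were called higher. With a median of 7 to 9 reads per CpG, a difference of a few points at a single CpG was not detectable at this depth.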
